A study of Mus musculus with 14 samples.

Results

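The NF-kB transcription factors are dimers built from 5 related proteins, and the genes of all 5 subunits are described here across every group of an RNA-seq series on mouse follicular B cells. The genes are Rel (c-Rel), Relb (RelB), Rela (RelA), Nfkb1 (the precursor p105 and its product p50) and Nfkb2 (the precursor p100 and its product p52). They were taken by name, by matching Ensembl gene IDs to mouse symbols, and make up 5 of the 39179 gene IDs counted. All 5 were found once in each of the 14 libraries and all 5 passed the filter on low counts, among 12630 genes tested. The cells were splenic follicular B cells, the mature B cells that recirculate through lymphoid follicles. They were purified with magnetic beads from C57BL/6 mice and grown in BAFF, a survival cytokine of mature B cells, at 50 ng per ml. Mice lacking both RelB and c-Rel (relb-/-crel-/-, here dbko) and mice lacking c-Rel (crel-/-, here cko) were each sampled at 6h and at 0h, and wild-type mice (wt) were sampled at 0h, 6h and 27h. Each of these 7 groups held 2 libraries. The age and sex of the mice, the structure of the deleted alleles and the tissue in which they were deleted are not given in the labels. The labels do not tell whether both libraries of a group come from different animals, and p-values therefore cover only the spread among the libraries at hand. No culture without BAFF was analysed here, so BAFF and time in culture cannot be told apart.

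As background, Rel, Rela and Relb proteins carry a domain that activates transcription, whereas p50 and p52 lack one and usually act as partners of the other subunits. The precursors p105 and p100 also hold Rel proteins in the cytoplasm, as IkB inhibitors do. In B cells the antigen receptor mainly releases dimers of RelA and c-Rel through the canonical pathway, and the BAFF receptor mainly drives the cutting of p100 to p52, which frees RelB with p52 through the noncanonical pathway. RelB is known mainly as a partner of p100 and p52, and NF-kB dimers are known to bind kappaB sites near several of the subunit genes themselves.

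In GENCODE M21 on GRCm38, Rel lies on chromosome 11 at 23736847 to 23770970 on the minus strand, with 10 exons. Relb lies on chromosome 7 at 19606217 to 19629438, minus strand, with 15 exons. Rela, on chromosome 19 at 5637483 to 5648130 on the plus strand, has 13 exons. Nfkb2, further along chromosome 19 at 46304320 to 46312385 on the plus strand, has 20 exons. Nfkb1 is the longest of them, on chromosome 3 at 135584655 to 135691547, minus strand, with 26 exons. Whether counting used strand is not stated in those sources. Exons of Nfkb2 overlap those of Psd on the opposite strand over 299 bases, which is 6.52% of its exon length, and Psd itself had between 1 and 12 reads per library. They also overlap AC114539.1, on the opposite strand too, over 531 bases, and its reads were not analysed here.

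RefSeq promoter windows, from 250 bases before a transcript start, were matched for 3 of the 5 genes, Rel, Rela and Nfkb2. They were searched on both strands for a kappaB consensus, a form of the sequence that NF-kB dimers bind. The pattern was GGGRNNYYCC, where R is A or G, Y is C or T and N is any base. The first 2 sequences below, on build GRCm38.p6, show the proximal promoters of a gene with a match to this pattern and of a gene without one. Capitals mark the match. The Rel stretch, chr11:23770971-23771219 on the minus strand, holds a match from 92 to 82 bases before the start, made of overlapping matches on both strands. The Rela stretch, chr19:5637291-5637482 on the plus strand, holds no match. Both lie outside the annotated exons of their own gene, and exons of other genes were not checked there.
Rel: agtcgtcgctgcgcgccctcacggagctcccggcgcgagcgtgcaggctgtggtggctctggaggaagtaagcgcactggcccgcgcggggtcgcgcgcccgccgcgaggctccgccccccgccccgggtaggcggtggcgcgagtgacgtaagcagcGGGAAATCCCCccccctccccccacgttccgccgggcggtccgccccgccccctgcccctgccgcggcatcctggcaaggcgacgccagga
Rela: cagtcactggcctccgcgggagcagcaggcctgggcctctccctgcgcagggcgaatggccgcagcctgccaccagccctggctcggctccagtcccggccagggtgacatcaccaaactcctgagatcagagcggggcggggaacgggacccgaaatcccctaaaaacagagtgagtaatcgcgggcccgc

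Nfkb2 has 3 annotated transcript starts with a window, and each window held at least 1 kappaB match. The sites are shown because Nfkb2, of the 3 genes not deleted, differed most between genotypes at 6h. On the plus strand of chromosome 19, site 1 is chr19:46304693-46304713, with its match 39 to 29 bases before the start at 46304737. Site 2, chr19:46304721-46304740, has its match 11 to 2 bases before that same start. Site 3, chr19:46305454-46305473, has its match 236 to 227 bases before the start at 46305695. Site 4, chr19:46305700-46305719, has its match 225 to 216 bases before the start at 46305930. Sites 1, 2 and 4 lie within annotated exons of Nfkb2 and site 3 does not.
Nfkb2 site 1: gtcacGGGAATTCCCCccctc
Nfkb2 site 2: cgaaaGGGGCTTTCCcggct
Nfkb2 site 3: cggcaGGAATGTCCCcacaa
Nfkb2 site 4: ttttcGGGACTTTCCtaagc
Of 32851 windows of the same length across all genes, 7.3% held a kappaB consensus match.  The 5 windows of Rel, Rela and Nfkb2 are 64.4 to 77.6% G and C. A match describes letters and is not evidence of binding.

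The libraries held 10497802 to 11888765 gene counts each, with 15438 to 16490 genes detected. Levels are CPM, counts relative to TMM-scaled library totals, and are given for replicate 1 and then replicate 2. Where the libraries of 2 groups are said to lie apart or not to overlap, this describes the values only. The share of all genes that did so was not counted. The B-cell gene Pax5 was present throughout, at 124 to 294 CPM, and the T-cell gene Cd3e was at 0.183 CPM or less in every library. The summed level of 6 B-cell markers, Pax5 among them, was lower at 6h than at 0h in each genotype. It was 5517 to 6206 CPM against 7496 to 8710 CPM in dbko and 5143 to 5282 CPM against 8204 to 8481 CPM in cko. In wt it was 4923 to 4973 CPM at 6h against 8976 to 9157 CPM at 0h. The summed level of the 6 T-cell markers was 16.5 to 24 CPM in dbko at 0h, mainly from Cd8a, against 6.56 to 8.36 CPM in cko and 5.71 to 7.92 CPM in wt. Of the 3 follicular markers Fcer2a and Cr2 were found. Cr2 was uneven in dbko, at 157 and 574 CPM at 0h, against 921 and 999 CPM in cko and 745 and 752 CPM in wt. Fcer2a at 0h was at 695 and 1088 CPM in dbko, 1131 and 1097 CPM in cko and 1192 and 1251 CPM in wt. At 6h Fcer2a was at 167 and 168 CPM in dbko, 296 and 277 CPM in cko and 552 and 515 CPM in wt. The sum of both at 6h was 288 to 311 CPM in dbko, 471 to 533 CPM in cko and 752 to 799 CPM in wt. The dbko replicates stood further apart than those of the other genotypes: their counts differed by a chi-square per gene of 38.25 at 6h and 33.23 at 0h, against 23.74 and 4.16 in cko at 6h and 0h, and 2.98 to 5.04 in wt. The dbko libraries also held RNA of other cells: the summed level of 8 macrophage and monocyte markers was 82.4 to 215 CPM at 6h in dbko, against 28.8 to 29.6 CPM in cko and 34 to 35.5 CPM in wt, and that of 6 erythroid markers was 81.2 to 207 CPM in dbko, 3.78 to 5.15 CPM in cko and 1.01 to 1.53 CPM in wt. At 0h the differences in erythroid markers were larger, with 448 to 1023 CPM in dbko, 46.1 CPM in cko and 7.29 to 8.52 CPM in wt. The macrophage and monocyte sum at 0h was 132 to 222 CPM in dbko, 33.7 to 37.7 CPM in cko and 128 to 133 CPM in wt. For 5 dendritic cell markers the sum at 0h was 83.9 to 84 CPM in dbko, 30.3 to 31.7 CPM in cko and 30.4 to 30.6 CPM in wt, and at 6h it was 20.7 to 35.7 CPM in dbko, 14.5 to 15.6 CPM in cko and 16.7 to 17 CPM in wt. For 4 marginal zone markers it was 333 to 588 CPM in dbko at 6h, against 133 to 255 CPM in dbko at 0h. In cko it was 296 to 313 CPM at 0h and 328 to 386 CPM at 6h, and in wt 328 to 338 CPM at 0h and 275 to 284 CPM at 6h. The 4 plasma cell markers, mainly Irf4, summed at 6h to 682 to 1100 CPM in dbko, 699 to 702 CPM in cko and 1309 to 1392 CPM in wt. Irf4 set the direction of that sum, at 600 and 812 CPM in dbko against 1220 and 1302 CPM in wt. Jchain went the other way, at 23.5 and 166 CPM in dbko against 13.3 and 14.4 CPM in wt. Sdc1 was at 24.7 and 56 CPM in dbko against 23.3 and 25.1 CPM in wt. Prdm1 was at 34 and 65.7 CPM in dbko against 52.4 and 49.9 CPM in wt. All 4 were higher in replicate 2 than in replicate 1 of dbko at 6h. The part of these cells in the results on dbko, between genotypes and over culture, was not tested. In bulk RNA, fewer cells of a type and less RNA per cell cannot be told apart.

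Per base of merged exon, Rel was the most abundant subunit transcript of resting wt cells and the least abundant of the 5 in cko at both times. Levels are compared between genes as RPKM, reads scaled to the length of the merged exons and to the library total. In wt at 0h Rel had 84.8 and 83.1 RPKM, and at 6h it had 90 and 91.5 RPKM. At 6h it lay below Nfkb2 in wt, which had 119 and 116 RPKM, against 71 and 75.3 RPKM at 0h. At 27h in wt Rel had 26.3 and 26.6 RPKM, below Nfkb2 at 72.4 and 75.3 RPKM, Rela at 36.7 and 40.7 RPKM and Nfkb1 at 32.4 and 33 RPKM. Relb was the lowest in wt at 27h, at 16.4 and 17.1 RPKM. In both dbko groups, too, Rel was lowest.

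**Figure D1:**
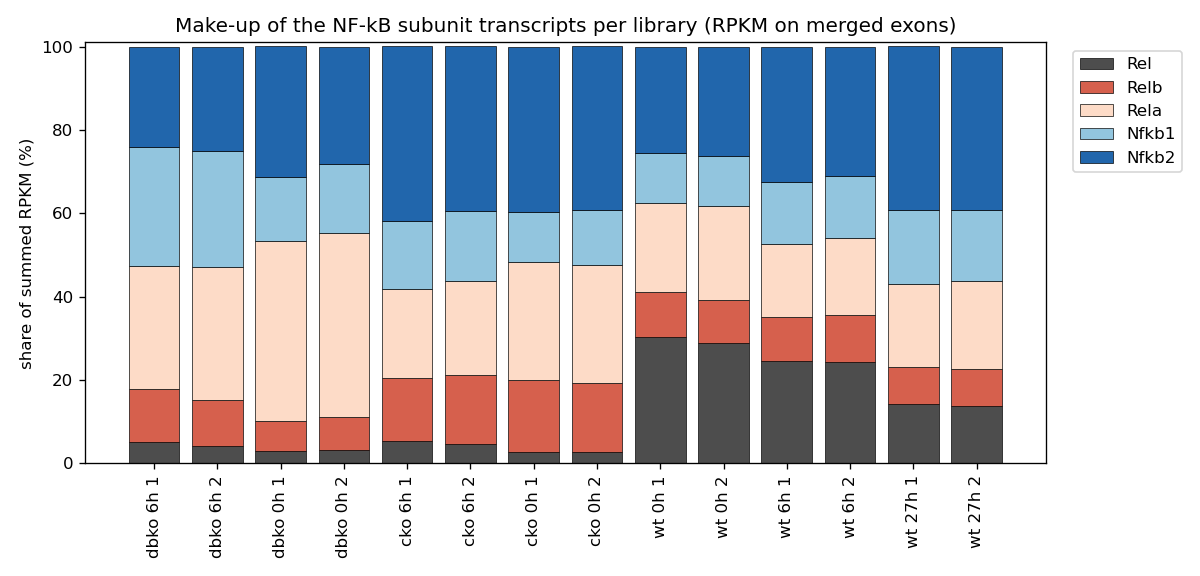
Share of the summed RPKM of the 5 subunit genes (percent, vertical axis, on merged exon lengths) in each of the 14 libraries (horizontal axis); each colour is 1 gene. Rel fills 30.4% and 28.8% of the bars of wt at 0h and 5.46% or less of every dbko and cko bar, and Nfkb1 fills 28.7% and 27.8% of the dbko bars at 6h.

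The make-up of the family, drawn in the plot of shares, differed with genotype and time, and these shares carry no test. Rel is deleted in dbko and cko and Relb in dbko, so differences between genotypes in shares and sums follow in part from the genotypes. A smaller share of Rel raises the shares of the other genes even where their own levels do not change. In wt, Rel supplied 30.4% and 28.8% of the summed RPKM at 0h, 24.6% and 24.4% at 6h and 14.3% and 13.8% at 27h, while Nfkb2 supplied 25.5% and 26.1%, then 32.6% and 31%, then 39.3% and 39.1%. In dbko, Rela held the largest share on merged exons, with 29.5% and 31.8% at 6h and 43.2% and 44% at 0h. In cko the largest share was that of Nfkb2, with 41.8% and 39.6% at 6h, and with 39.6% and 39.2% before culture. The summed RPKM of the 5 genes was 139 and 202 in dbko at 6h, 273 and 269 in cko and 366 and 375 in wt. The share of Nfkb1 rests on its exon length, 12061 bases over merged exons and 4149 bases in its longest transcript: on the longest transcript its share in wt at 0h was 26.6% and 26.5%, in place of 12.1% and 12.1%, and so above Rel, at 22.9% and 21.7%. The order of genes is thus tied to the annotation, while a gene's changes between groups are not.

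**Figure D2:**
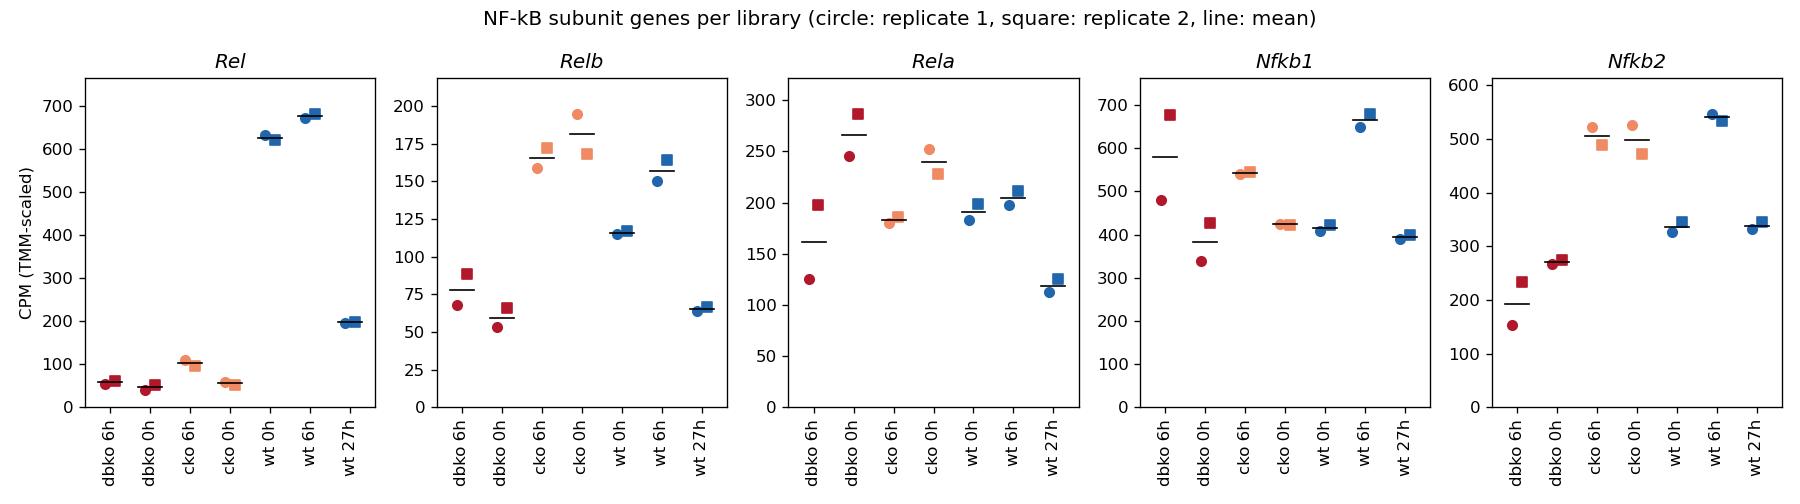
Level of each of the 5 genes (CPM on TMM-scaled library totals, linear axes from 0, 1 panel a gene) in every library of the 7 groups; each point is 1 library, circles for replicate 1 and squares for replicate 2, and lines are group means. Rel sits at 40 to 111 CPM in dbko and cko and at 197 to 683 CPM in wt, and Nfkb2 in dbko at 6h, at 153 and 233 CPM, lies below every other group.

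Rel, the gene deleted in both knockouts, was far below wt but not at 0, and its remaining reads were higher at 6h than at 0h in cko. In dbko at 6h it had 666 and 785 reads and in cko 1267 and 1166 reads, against 7345 and 8044 reads in wt. At 0h it had 426 and 546 reads in dbko and 551 and 527 reads in cko, against 6078 and 6412 reads in wt. As a percentage of the wt mean at the same time these are 7.95% and 9.05% in dbko and 16.4% and 14.1% in cko at 6h, and 6.38% and 8.34% in dbko and 9.3% and 8.36% in cko at 0h. The groups did not overlap with wt at either time. The tables give 1 count per gene, so they do not show which exons the remaining reads cover.

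In cko, Rel rose by 0.90 ± 0.14 on the log2 scale (adjusted p = 0.000236, edgeR quasi-likelihood test with Benjamini-Hochberg adjustment, as for all adjusted p-values here). It had 111 and 95.3 CPM at 6h, against 58.3 and 52.4 CPM at 0h, with n = 2 libraries each. Here and below, the value after ± is an SE from the fit of all 14 libraries and not the spread within the groups compared. In dbko the difference was 0.32 ± 0.14 (edgeR adjusted p = 0.0822), with 53.9 and 61.4 CPM at 6h against 40 and 52.3 CPM before culture. In wt it was 0.11 ± 0.13 (edgeR adjusted p = 0.507), with 633 and 621 CPM before culture, then 672 and 683 CPM at 6h. The rise in cko was not shown to differ from wt, at 0.79 ± 0.19 (edgeR adjusted p = 0.057), though DESeq2, no filter on low counts and a fit of the compared groups alone each called it. At 6h Rel was lower in dbko than in cko, with a log2 difference of -0.84 ± 0.14 (edgeR adjusted p = 0.00232), and at 0h the difference was -0.26 ± 0.14 (edgeR adjusted p = 0.275). With dbko and cko alone in the fit, the adjusted p of the 6h difference was 0.0614.

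Relb, the gene also deleted in dbko and the partner of p52, was lower but not at 0 in dbko and, in cells lacking c-Rel alone, higher than wt before culture. At 0h it had 53 and 65.6 CPM in dbko and 195 and 168 CPM in cko, against 115 and 117 CPM in wt. In dbko this was 45.7% and 56.6% of the wt mean, and in cko 168% and 145%. The cko libraries lay above both wt libraries, and the difference of 0.64 ± 0.14 (edgeR adjusted p = 0.0385) was called, but leaving out any 1 of the 4 libraries ended the call, with adjusted p-values of 0.142 to 0.337. At 6h the difference between cko and wt was not called, with 159 and 172 CPM in cko against 150 and 164 CPM in wt, a difference of 0.08 ± 0.14 (edgeR adjusted p = 0.837). In dbko Relb at 6h had 67.8 and 88.4 CPM, which was 43.2% and 56.4% of the wt mean.

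Between 0h and 6h Relb rose in wt by 0.43 ± 0.14 on the log2 scale (edgeR adjusted p = 0.0216). This call rested on single libraries: it ended when either wt 0h library or wt 6h replicate 2 was left out, with adjusted p-values up to 0.139. The remaining Relb reads of dbko rose by 0.40 ± 0.14 (edgeR adjusted p = 0.041), a call that ended without dbko 0h replicate 1, at an adjusted p of 0.284, and without dbko 6h replicate 2, at 0.319. With DESeq2 its adjusted p was 0.0558. In cko the difference was -0.13 ± 0.14 (edgeR adjusted p = 0.463). None of the differences between these responses was called.

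Rela, the activating subunit best known from the canonical pathway, fell in dbko over the 6h of culture. It had 125 and 198 CPM in dbko at 6h, against 246 and 287 CPM at 0h, a change of -0.72 ± 0.17 (edgeR adjusted p = 0.00495). Both 6h libraries lay below both 0h libraries, but the 6h replicates differed by 1.57 times, the widest gap of any gene and group here. Without dbko 6h replicate 1 the change was -0.43 (edgeR adjusted p = 0.0247), and with the dbko groups alone in the fit the adjusted p was 0.12. In cko Rela had 180 and 186 CPM at 6h, against 252 and 228 CPM at 0h, a difference of -0.39 ± 0.17 (edgeR adjusted p = 0.0829). In wt it had 183 and 199 CPM before culture, then 198 and 211 CPM at 6h, with a difference of 0.09 ± 0.17 (edgeR adjusted p = 0.683). With all 14 libraries and the filter on low counts, edgeR called Rela in no comparison between genotypes at 0h or at 6h. It was called in dbko against wt at 0h without either dbko replicate at both times, at 0.58 without replicate 1 (edgeR adjusted p = 0.00201) and 0.36 without replicate 2 (edgeR adjusted p = 0.0165). Without dbko 6h replicate 2 it was called at 6h against wt, at -0.70 (edgeR adjusted p = 0.00207), and against cko, at -0.54 (edgeR adjusted p = 0.0132). Without the filter it was called against wt at both times.

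Nfkb1, which encodes p105 and p50, was higher at 6h than at 0h in wt and in dbko and was called in no comparison between genotypes with all 14 libraries. Without dbko 6h replicate 2 it was called in dbko against wt at 6h, at -0.47 (edgeR adjusted p = 0.0263), and leaving out a dbko replicate number at both times also gave calls. In wt it rose by 0.68 ± 0.15 on the log2 scale (edgeR adjusted p = 0.00302), with 409 and 421 CPM before culture, then 650 and 680 CPM at 6h. In dbko it rose by 0.60 ± 0.15 (edgeR adjusted p = 0.00785), with 481 and 677 CPM at 6h against 339 and 426 CPM at 0h. The groups did not overlap, but the call in dbko ended without dbko 0h replicate 1, at an adjusted p of 0.0726, without dbko 6h replicate 2, at 0.086, and with the dbko groups alone, at 0.156. In cko it had 540 and 545 CPM at 6h against 425 and 423 CPM at 0h, a difference of 0.36 ± 0.15 (edgeR adjusted p = 0.0786). The difference between the dbko and wt responses was -0.08 ± 0.22 (edgeR adjusted p = 0.837).

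Nfkb2, which encodes p100, the protein that BAFF signalling cuts to p52, was, of the 3 genes not deleted, the one that was lower in dbko than in both other genotypes at 6h. It had 153 and 233 CPM in dbko and 523 and 489 CPM in cko, against 547 and 533 CPM in wt. Both dbko libraries lay below all 4 others. The difference of dbko from wt was -1.49 ± 0.16 (edgeR adjusted p = 7.14e-05), that of dbko from cko was -1.39 ± 0.16 (edgeR adjusted p = 0.000323), and that of cko from wt was -0.09 ± 0.16 (edgeR adjusted p = 0.822). The calls of dbko against wt and against cko held under every alternative tried. The 2 dbko libraries stood at 28.2% and 43.2% of the wt mean, with replicates 1.53 times apart, and leaving out any 1 library gave differences of -1.82 to -1.21 from wt.

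Before culture the 3 genotypes were ordered differently for Nfkb2. It had 267 and 274 CPM in dbko and 526 and 471 CPM in cko, against 326 and 345 CPM in wt. In dbko it was lower than in cko, with a log2 difference of -0.88 ± 0.16 (edgeR adjusted p = 0.00477), a call that ended without cko 0h replicate 1, at an adjusted p of 0.0665. The difference of dbko from wt was -0.31 ± 0.16 (edgeR adjusted p = 0.223). Both cko libraries lay above both wt libraries, by 0.57 ± 0.16 (edgeR adjusted p = 0.109). That difference depended on the method: it was called by DESeq2, at an adjusted p of 0.00861, and by edgeR without the filter on low counts, at 0.00212.

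**Figure D3:**
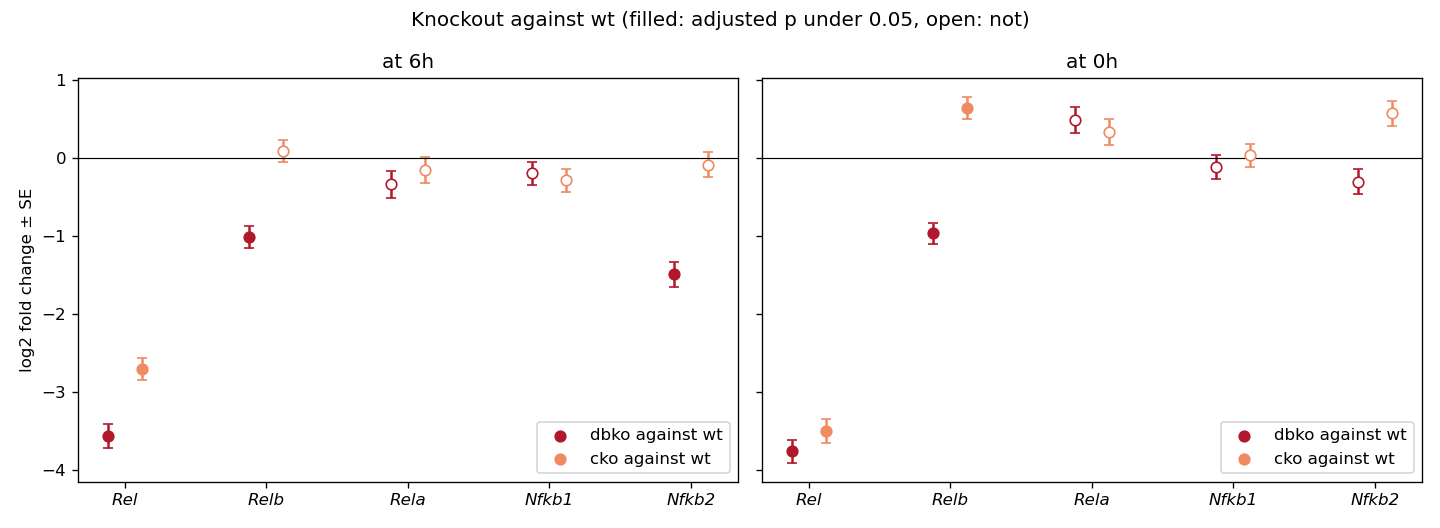
Difference of dbko and of cko from wt (log2 fold change ± SE, vertical axis, n = 2 libraries a group) for each of the 5 genes at 6h (left) and at 0h (right), with filled points called at an edgeR adjusted p under 0.05. Nfkb2 in dbko against wt is at -1.49 at 6h and at -0.31, uncalled, at 0h, and Rela and Nfkb1 are open points throughout.

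Counted together, 3 of the 5 genes (Rel, Relb and Nfkb2) were lower in dbko than in wt at 6h, where 11.5% of all genes tested were lower, and the same 3 were lower in dbko than in cko, where 4.66% were lower. Against wt at 0h, 2 of the 5 (Rel and Relb) were lower in dbko, with 4.55% of all genes lower. Against cko at 0h, 2 of the 5 (Relb and Nfkb2) were lower in dbko, with 2.39% lower. In cko 1 of the 5 (Rel) was lower than wt at 6h, with 1.96% of all genes lower. At 0h Rel was lower and Relb higher in cko than in wt, where 0.578% of all genes were lower and 0.918% higher. The calls of Rel against wt, and of Relb in dbko, are those of deleted genes and describe the genotypes. That leaves Nfkb2 as the gene not deleted that was called in dbko at 6h. These comparisons share control libraries.

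The change between 0h and 6h differed between dbko and wt for Nfkb2 and Rela. Nfkb2 fell by 0.49 on the log2 scale in dbko over the 6h (edgeR adjusted p = 0.0274) and rose by 0.69 in wt (edgeR adjusted p = 0.00355), with 0.02 ± 0.16 in cko (edgeR adjusted p = 0.92). Both dbko libraries at 6h lay below both at 0h, while in wt both 6h libraries lay above both at 0h. The difference of the dbko and wt responses was -1.18 ± 0.22 (edgeR adjusted p = 0.0062), and it was called under every alternative. The fall within dbko was less stable and ended without dbko 0h replicate 1, at an adjusted p of 0.0523, without dbko 0h replicate 2, at 0.0785, without dbko 6h replicate 1, at 0.207, and with the dbko groups alone, at 0.225. For Rela the difference of responses was -0.82 ± 0.24 (edgeR adjusted p = 0.0416), and 6 of the 10 ways of leaving libraries out ended that call, with adjusted p-values up to 0.154. In all, 2 of the 5 genes had a lower response in dbko than in wt, where 6.94% of all genes tested did, and between cko and wt none was called by edgeR with all libraries and the filter. For that last comparison 1.7% of all genes were called in either direction. Of the 5, Rel, Relb and Nfkb2 had an unadjusted edgeR p under 0.05, at 0.00113, 0.0125 and 0.0109, and DESeq2 and edgeR without the filter both called Rel, at 0.74, and Nfkb2, at -0.71. With only the compared groups in the fit, edgeR called Rel, Relb, Rela and Nfkb2, at 0.76, -0.59, -0.51 and -0.69. Between dbko and cko none of the 5 responses was called by edgeR, where 0.934% of all genes were.

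**Figure D4:**
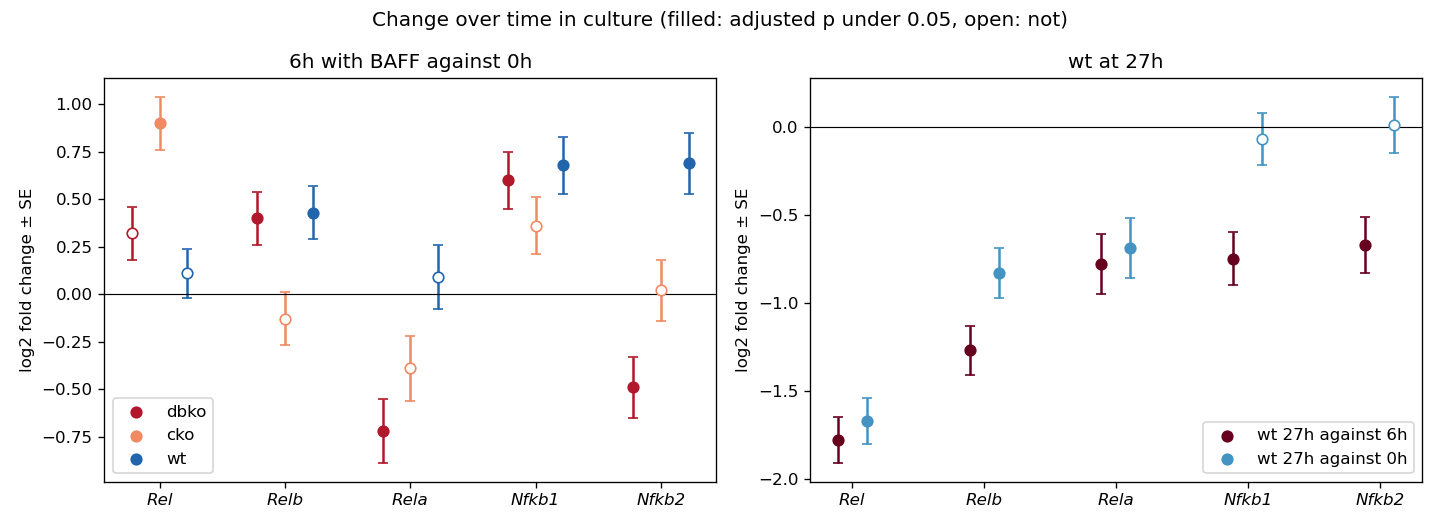
Change over culture (log2 fold change ± SE, n = 2 libraries a group) for each of the 5 genes, at 6h against 0h in dbko, cko and wt (left) and at 27h against 6h and against 0h in wt (right), with filled points called at an edgeR adjusted p under 0.05. At 6h Nfkb2 is at -0.49 in dbko, 0.02 in cko and 0.69 in wt.

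Over the 6h, 2 of the 5 genes rose in dbko (Relb and Nfkb1) and 2 fell (Rela and Nfkb2), where 19.3% of all genes rose and 20.3% fell. In cko 1 of the 5 rose, Rel, where 21.8% of all genes rose. In wt 3 of the 5 rose (Relb, Nfkb1 and Nfkb2), where 22.6% of all genes did. A call over the 6h was thus common among all genes.

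The balance of Nfkb1 to Nfkb2 reads stayed near its starting value in wt and was highest in dbko at 6h. The ratio of Nfkb1 reads to Nfkb2 reads, which compares libraries free of their scaling, was 3.15 and 2.91 in dbko cells at 6h, against 1.27 and 1.55 in those at 0h. In cko it was 1.03 and 1.11 at 6h, against 0.807 and 0.898 at 0h. In wt it was 1.25 and 1.22 at 0h, then 1.19 and 1.28 at 6h, then 1.18 and 1.15 at 27h. The 2 dbko libraries at 6h gave nearly equal ratios although their Nfkb2 levels were 1.53 times apart, and the range of all other libraries ended below them, at 1.55. The ratio is a description with no test of its own, and the reads are not scaled by gene length.

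**Figure D5:**
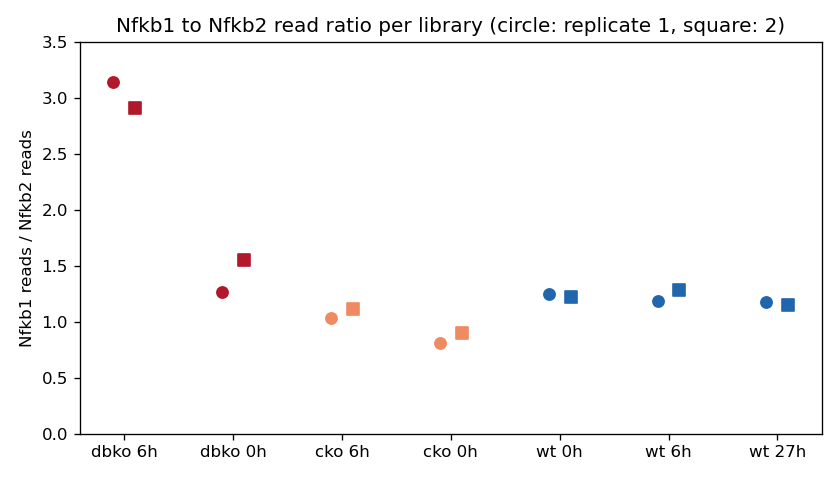
Nfkb1 reads divided by Nfkb2 reads (vertical axis, from 0) in each library of the 7 groups (horizontal axis); each point is 1 library and its shape is the replicate. The 2 dbko libraries at 6h are at 3.15 and 2.91 and all others lie between 0.807 and 1.55.

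Other ratios behaved differently. Rel reads per Rela read were 0.429 and 0.311 in dbko at 6h, 0.62 and 0.513 in cko at 6h, and 3.46 and 3.11 in wt at 0h, 3.4 and 3.24 at 6h and 1.74 and 1.59 at 27h. Relb reads per Nfkb2 read, the pair whose proteins bind each other, were 0.444 and 0.379 in dbko cells at 6h, against 0.199 and 0.239 in those at 0h, so both genes being lower in dbko at 6h left their ratio above that of wt, at 0.273 and 0.308. In wt this ratio was 0.354 and 0.338 at 0h and 0.192 and 0.192 at 27h.

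By 27h in wt all 5 genes had fallen from 6h, and those that rose at 6h did not end alike. Rel had 197 and 198 CPM at 27h and fell by 1.78 on the log2 scale (edgeR adjusted p = 4.87e-06), Relb fell by 1.27 (5.45e-05), Rela fell by 0.78 (0.00451), Nfkb1 fell by 0.75 (0.00273) and Nfkb2 fell by 0.67 (0.0065), each an edgeR adjusted p. Of all genes tested 18.2% fell between these times. The calls of Rela and Nfkb2 ended without wt 27h replicate 1, at adjusted p-values of 0.0545 and 0.0602. All 27h libraries lay below all 6h libraries for each gene, a description whose share over all genes was not counted.

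Set against 0h, the 5 genes at 27h fell into 3 that were lower and 2 that were not called. Rel changed by -1.67 ± 0.13 on the log2 scale (edgeR adjusted p = 1.31e-06), Relb by -0.83 ± 0.14 (edgeR adjusted p = 0.000433) and Rela by -0.69 ± 0.17 (edgeR adjusted p = 0.00567), 3 of the 5 where 24.6% of all genes fell. The Rela call ended without wt 27h replicate 1, at an adjusted p of 0.0557. Nfkb1, with 390 and 398 CPM at 27h, differed by -0.07 ± 0.15 (edgeR adjusted p = 0.717), and Nfkb2, with 332 and 345 CPM, by 0.01 ± 0.16 (edgeR adjusted p = 0.952). Thus the 3 genes with an activating domain were lower at 27h, and the genes of both precursors were not called. The direct difference between the 2 kinds of gene was not tested.

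The genes around the subunits were read from 5 lists, and the main counts of called members stand beside the share of all genes tested. The IkB list holds 6 genes for inhibitors and atypical IkB proteins, which hold Rel proteins or modify p50 and p52 dimers in the nucleus. In dbko at 6h 4 of 6 were lower than wt and none higher, with a median difference of -0.82 on the log2 scale, against a median of 0.05 over all genes tested and 11.5% of all genes lower. Nfkbiz, an atypical IkB protein, had 49.8 and 90.4 CPM in dbko at 6h and 95 and 83.3 CPM in cko, against 209 and 266 CPM in wt, a difference of -1.76 ± 0.24 from wt in dbko (edgeR adjusted p = 0.000564). Nfkbid, another, differed by -2.41 ± 0.37 (edgeR adjusted p = 0.00151) with 104 and 281 CPM in dbko, against 911 and 1129 CPM in wt. In cko Nfkbid had 334 and 370 CPM at 6h, a difference of -1.53 ± 0.36 from wt (edgeR adjusted p = 0.0471). Of the 6 genes 2 were lower in cko than in wt at 6h and none higher, where 1.96% of all genes were lower. Between dbko and cko at 6h none of the 6 was called, where 4.66% of all genes were lower in dbko. Nfkbia, the classical inhibitor IkB-alpha, differed by -1.15 ± 0.21 (edgeR adjusted p = 0.00207). In wt 1 of 6 (Nfkbiz, by 1.19 ± 0.24) rose at 6h and 2 fell, where 23.5% of all genes fell. By 27h 4 of 6 had fallen from 6h, where 18.2% of all genes had, with a median of -0.80 against 0.01 over all genes. The response of Nfkbiz was lower than in wt both in dbko, at a log2 difference of -1.86 ± 0.34 (edgeR adjusted p = 0.0062), and in cko, at -1.69 ± 0.34 (edgeR adjusted p = 0.0351).

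The noncanonical list runs from the BAFF receptors to the kinases that lead to cutting of p100, and 9 of its 10 genes were tested. At 6h 4 of 9 were lower and 1 higher in dbko than in wt, where 11.5% of all genes were lower and 15.2% higher. The list's median was -0.27, against 0.05 over all genes. Birc3 and Birc2, which encode the ubiquitin ligases cIAP2 and cIAP1 that restrain the pathway, were lower, with log2 differences of -0.98 ± 0.13 (edgeR adjusted p = 0.000356) and -0.89 ± 0.13 (edgeR adjusted p = 0.000593). Tnfrsf13b, the receptor TACI, was higher in dbko by 1.03 ± 0.13 (edgeR adjusted p = 0.00024), with 263 and 209 CPM against 117 and 115 CPM in wt. In wt Traf3, the adaptor whose loss releases the kinase NIK, fell at 6h by 0.78 on the log2 scale (edgeR adjusted p = 0.000401), and 2 of 9 rose and 2 fell, where 22.6% of all genes rose and 23.5% fell. Tnfrsf13c, the BAFF receptor, was lower in cko than in wt at 6h, with a log2 difference of -0.77 ± 0.12 (edgeR adjusted p = 0.00343).

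The canonical list holds 20 genes of IKK activation and its brakes, all tested. In dbko against wt at 6h 4 of 20 were lower and 2 higher, where 11.5% of all genes were lower and 15.2% higher. The list's median was -0.20, against 0.05 over all genes. Traf1, an adaptor and common NF-kB target, had 40.9 and 54.6 CPM in dbko and 160 and 153 CPM in cko, against 242 and 250 CPM in wt, a difference in dbko of -2.37 ± 0.14 (edgeR adjusted p = 5.99e-07). Tnfaip3, the deubiquitinating brake A20, differed from wt by -1.67 ± 0.28 in dbko (edgeR adjusted p = 0.00173) and by -1.41 ± 0.28 in cko (edgeR adjusted p = 0.0177). In wt Prkcb, a kinase that links the antigen receptor to IKK, fell at 6h, with a log2 change of -1.45 ± 0.14 (edgeR adjusted p = 7.48e-06), and by 27h 10 of 20 genes had fallen from 6h, where 18.2% of all genes had, with a median of -0.35 against 0.01 over all genes.

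For the ubiquitin ligase that handles IkB, p105 and p100, 8 genes were tested. In dbko at 6h 1 of them was lower than in wt, Fbxw11, a substrate receptor, at -0.68 ± 0.14 (edgeR adjusted p = 0.00367), and none was higher. Of 10 coactivators and modifiers of Rel proteins 2 were higher and 1 lower in dbko. Pdlim2, which in the nucleus promotes the breakdown of RelA, was higher by 0.92 ± 0.15 (edgeR adjusted p = 0.00105), and its response differed from that of wt by 1.45 ± 0.21 (edgeR adjusted p = 0.00153). Beside these counts, 11.5% of all genes were lower and 15.2% higher in dbko than in wt at 6h. Also higher there were 8 of 8 macrophage markers and 6 of 6 erythroid markers.

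Each subunit gene was set beside the genes whose profile over the 7 groups was nearest to its own, measured by the root mean square difference of centred log2 levels among 8712 genes of sufficient level. Rel had few near neighbours, with Sfn nearest at 0.364 and the median gene at 1.55, and its profile holds its own deletion in dbko and cko. Sfn averaged 6.93 CPM in dbko and 12.6 CPM in cko at 6h, against 43.9 CPM in wt at 0h, 62.3 CPM in wt at 6h and 32.7 CPM in wt at 27h. Next came Hmgn2 at 0.689, then Shank1 at 0.948, Ifi206 at 0.974 and Ifi213 at 0.994. Hmgn2, Ifi206 and Ifi213 have near-identical copies, and reads that map to several places are not in the counts, so their levels are uncertain.

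For Relb the nearest genes were Gramd3 at 0.217, Dcun1d4 at 0.246, Dennd2d at 0.257, Itpkb at 0.3 and Crebl2 at 0.305. For Nfkb2 they were Slc41a1 at 0.179, Jarid2 at 0.239, Dcun1d4 at 0.246, Snx18 at 0.249 and Tmem64 at 0.256. Rela was nearest to Tfb2m at 0.072, Rbm39 at 0.078, Trim25 at 0.081, Azi2 at 0.086 and Tmem87b at 0.087. Nfkb1 was nearest to Tsc1 at 0.061, Eme2 at 0.068, Rbm5 at 0.078, Taf1c at 0.082 and Sbf1 at 0.082. Among the subunits themselves the closest pair was Relb and Nfkb2, at 0.37, where Nfkb2 ranked 20 of the genes nearest to Relb and Relb ranked 148 of those nearest to Nfkb2. Dcun1d4 stood among the 5 nearest of both. These distances cover 7 group means of the same 14 libraries and are descriptions.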

How the data were processed

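The authors deposited 1 table of read counts per Ensembl gene for each of 14 libraries, not normalized and not pooled. CASAVA 1.8.2 is named in the submitters' processing notes. The aligner, counter, build and use of strand are unknown (not given in the sources used here). Tallies of reads outside genes, left out of library sizes and tests, were per library 5.21 to 11.46% in no feature, 0.41 to 0.49% ambiguous and 38.77 to 49.85% at more than 1 place. Symbols and exon lengths came from GENCODE M21 on GRCm38 (37607 of 39179 IDs, 99.54% of gene counts) and promoter sequences from RefSeq on GRCm38.p6. Neither need be the build the authors used.

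After filterByExpr by group, 12630 genes entered a robust quasi-likelihood fit with TMM scaling (edgeR 4.0.16 in R 4.3.3) of all 14 libraries, 1 mean for each group. It left 7 residual degrees of freedom, and the common biological coefficient of variation was 0.144. Each SE is the absolute log2 fold change over the square root of its F statistic. It draws on the spread of a gene in all groups and does not follow the wider spread of the dbko replicates. Tests were two-sided, with Benjamini-Hochberg adjustment over all genes tested, with 0.05 as the threshold of a call. Differences of the 6h response between genotypes were contrasts of the same fit, and 14 comparisons were made. Tables were handled in Python 3.11.15 with pandas 2.3.3, NumPy 2.4.6 and Matplotlib 3.10.9.

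The 5 genes were given by name. For each, the 5 genes nearest in profile, at a minimum average log2 CPM of 3, and from each pathway list the 3 called members of lowest adjusted p per comparison (or fewer) were open to naming. The genes and lists were chosen with earlier results of these data known. Alternatives were DESeq2 size factors, no filter, DESeq2 1.42.0, a replicate block, a fit of only the groups compared, and the omission of single libraries or of a dbko replicate number at both times. A group left with 1 library then takes its spread from the others. Lane 7 held every replicate 1 and lane 8 every replicate 2. Results of some genes open to naming are not reported here.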

Additional observations from a re-analysis of the deposited data

Results flagged for a closer look

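The 6h response of Nfkb2 was lower in dbko than in wt, with a log2 difference of -1.18 ± 0.22 (edgeR quasi-likelihood test of the difference, adjusted p = 0.0062), with a fall in dbko and a rise in wt. The 6h response of Rela was lower in dbko than in wt, at -0.82 ± 0.24 (edgeR adjusted p = 0.0416). Each stands here because the same change over culture differed between the 2 genotypes by a test of that difference. The summed level of the 8 macrophage and monocyte markers in dbko was 82.4 to 215 CPM at 6h, against 132 to 222 CPM at 0h, and in wt it was 128 to 133 CPM at 0h and 34 to 35.5 CPM at 6h. The erythroid sum was 81.2 to 207 CPM in dbko at 6h, against 448 to 1023 CPM in dbko at 0h, with 6 of 6 markers lower at 6h, and the dendritic cell sum was 20.7 to 35.7 CPM against 83.9 to 84 CPM, with 4 of 4 tested markers lower. The part of these cells in the differences was not tested.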

How the results depend on the processing

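Each of the 70 differences reported for the 5 genes was recomputed under every alternative, 350 values with another method and 410 with libraries left out. Of the 31 calls, 19 held under every alternative, and 33 of the 70 differences kept both direction and side of the threshold throughout; among them are Nfkb2 in dbko against wt at 6h, in dbko against cko at 6h and in its response in dbko against wt. With the replicate block the last was -1.18 (edgeR adjusted p = 0.00622) and no call of the 5 genes changed. Replicate numbers were not treated as pairs in the main fit. As a check, deviations correlated above 0.1 for 7 of 21 group pairs, with values of -0.34 to 0.45 over 8961 genes. This check did not set apart pairs within a genotype, so pairing within dbko was not tested. In dbko each of the 5 genes was higher in replicate 2 at both times, and each erythroid marker was higher in replicate 1. Values here are log2 differences, and the cause of a change was not tested. With only the compared groups in the fit, calls ended in dbko at 6h against 0h for Relb (0.40), Rela (-0.72), Nfkb1 (0.60) and Nfkb2 (-0.48), in dbko against cko at 6h for Rel (-0.82) and for the Rela response in dbko against wt (-0.82). That setting added calls for Rela (-0.41) and Nfkb1 (0.34) in cko at 6h against 0h, Rela (0.34) and Nfkb2 (0.59) in cko against wt at 0h, and the responses in cko against wt of Rel (0.76), Relb (-0.59), Rela (-0.51) and Nfkb2 (-0.69). The Relb rise in dbko was 0.37 and uncalled with DESeq2 and with its size factors. DESeq2 and no filter both added Rela in cko at 6h against 0h (-0.44), Nfkb2 in cko against wt at 0h (0.61), and the responses in cko against wt of Rel (0.74) and Nfkb2 (-0.71). No filter also added Rela in dbko against wt at 0h (0.48) and at 6h (-0.37). Nfkb2 changed sign, uncalled, in wt at 27h against 0h (-0.0035 with DESeq2 size factors, -0.0009 with no filter, -0.0044 with DESeq2) and in cko at 6h against 0h (-0.03, -0.02 and -0.03).

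Leaving out single libraries gave the ranges below. They are listed where a call or sign changed, either then or with a dbko replicate number left out at both times. In wt they were 0.36 to 0.50 for Relb at 6h against 0h, -0.86 to -0.70 for Rela and -0.70 to -0.64 for Nfkb2 at 27h against 6h, and -0.76 to -0.61 for Rela and -0.03 to 0.05 for Nfkb2 at 27h against 0h. In cko Nfkb2 gave -0.06 to 0.10 at 6h against 0h. In dbko at 6h against 0h they were 0.12 to 0.53 for Rel, 0.19 to 0.58 for Relb, 0.33 to 0.83 for Nfkb1 and -0.82 to -0.21 for Nfkb2. At 0h they were 0.54 to 0.75 for Relb in cko against wt. In dbko against wt at 0h they were 0.36 to 0.58 for Rela, -0.30 to 0.03 for Nfkb1 and -0.35 to -0.27 for Nfkb2, and against cko -0.47 to -0.12 for Rel, -0.33 to -0.03 for Nfkb1 and -0.96 to -0.80 for Nfkb2. In dbko at 6h they were -0.70 to -0.04 for Rela and -0.47 to 0.03 for Nfkb1 against wt, and -0.54 to 0.12 for Rela and -0.18 to 0.32 for Nfkb1 against cko. Responses in dbko gave -0.24 to 0.14 for Relb, -1.18 to -0.52 for Rela and -0.35 to 0.15 for Nfkb1 against wt, and -0.69 to -0.04 for Rela, -0.02 to 0.47 for Nfkb1 and -0.85 to -0.23 for Nfkb2 against cko. Without either dbko replicate at both times Rela was called in dbko against wt at 0h (0.58 and 0.36). Without dbko replicate 1 at both times Nfkb2 was -0.25 at 6h against 0h, and Nfkb1 was 0.01 against wt and 0.31 against cko at 6h, with Rela at 0.10 against cko. Without dbko replicate 2 at both times Rel was 0.43 at 6h against 0h, Nfkb2 was -0.33 against wt at 0h, and the responses against cko were -0.57 for Rela and -0.82 for Nfkb2.

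Counts over all genes moved by over 1.5 times under several settings. In dbko against wt at 6h, 3370 genes were called, and 1075 with the compared groups alone. In dbko against wt at 0h it was 1472, against 416 with those groups alone, and for the responses of dbko and wt 1749, against 650. In cko against wt at 0h it was 189, against 2660, with 385 by DESeq2. For the responses of cko and wt it was 215, against 1292, with 494 by DESeq2. For those of dbko and cko it was 118, against 1, with 252 by DESeq2. In dbko against cko it was 1140 at 0h, against 545, and 1697 at 6h, against 190. In wt at 27h against 6h it was 4309, against 7531, and in dbko at 6h against 0h 5004, against 1323. In cko against wt at 6h it was 447, which moved so only with a library left out or without the filter. Leaving out 1 library moved each of these counts by over 1.5 times in some case, except that of dbko at 6h against 0h. In dbko against wt or cko the highest counts came without dbko replicate 2 at both times, which drops more than 1 library. Without the filter the counts were 648, 2361, 2124, 1030, 654 and 576 for cko and dbko against wt at 0h, dbko against cko at 0h, cko against wt at 6h and the responses of cko against wt and of dbko against cko. On the longest transcript, all shares of the 5 genes moved.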
